A study of Mus musculus with 4 samples.

Results

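Cumulus-like granulosa cells high in Slc38a5 were the 1636 of 8179 gated granulosa cells with the largest share of UMIs in 4 genes: Slc38a5, Tex15, Fam81a and Dnajb13. UMIs (unique molecular identifiers) are tags by which copies of 1 captured RNA molecule are counted a single time. A cell of the 33639 deposited barcodes entered the granulosa gate with at least 5000 UMIs, at most 20% mitochondrial UMIs and at least 1 UMI in 3 or more of the granulosa genes Foxl2, Fshr, Nr5a2, Kctd14, Gatm and Amhr2. Its UMIs of the stromal genes Dcn and Col1a1 had to stay under 5 per 10000. The members were the top 20% of these cells over all 4 libraries together, and the other 6543 gated cells are called the rest. The rule read these same cells, so every value of members beside the rest below is a description with no test.

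The 4 groups of mice were treated from postnatal day 25. The control group was given vehicle (PBS/saline) and the doxorubicin group 3 mg/kg of doxorubicin in 2 weekly doses. The doxorubicin+AMH group had recombinant human anti-Müllerian hormone (AMH, 0.75 mg/kg) as well, and the AMH group had this dose of the hormone without doxorubicin. One ovary of each of 5 animals was pooled per group, 4 hours after the last dose, and each pool gave 1 droplet library of 3′ transcript ends. Each difference between groups therefore compares single libraries, with no replicate check, and the 95% intervals cover counting error only.

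Cumulus cells are the granulosa cells that surround the oocyte, and mural granulosa cells line the wall of the antral follicle. The oocyte takes up some amino acids poorly and oxidises little glucose, so cumulus cells hand it amino acids and glycolytic products through gap junctions, and oocyte factors are known to raise amino acid transport, glycolysis and cholesterol synthesis in them. AMH is a TGF-β family hormone of the granulosa cells of growing follicles that acts through its receptor Amhr2 and the BMP-type SMAD proteins. Doxorubicin is an anthracycline that blocks topoisomerase II and breaks DNA, which activates p53.

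Slc38a5, a transporter of glutamine and other neutral amino acids, lies at X:8271133-8280179 (mm10, GENCODE vM21 annotation). Its summed UMIs in members came to 256, 281, 295 and 302 per 1000000 UMIs (CPM). All lists of 4 values follow the order control, doxorubicin, doxorubicin+AMH, AMH. The rest had 33.6, 39.8, 67.8 and 56.3 CPM. Tex15, known for its part in meiotic recombination in the male germ line, lies at 8:33516738-33585582 and stood at 331, 285, 228 and 238 CPM in members against 82.3, 76.4, 67.5 and 66.8 in the rest. Fam81a, at 9:70088511-70142560, had 90.3, 97.1, 98.7 and 91.3 CPM in members and 20.8, 17.5, 21.7 and 16.8 in the rest. Dnajb13, a heat shock protein 40 family member of the radial spoke of sperm and ciliary axonemes, lies at 7:100501716-100514960. It had 73.1, 77.4, 93.2 and 90.7 CPM in members and 12.8, 12.2, 24.2 and 17.7 in the rest. These values chose the members. Slc38a5 was highest in the members of the AMH library, Tex15 in those of control and Fam81a and Dnajb13 in those of doxorubicin+AMH.

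By this choice 922 members (56.4%) held UMIs of all 4, 478 of 3, 197 of 2 and 39 of 1, and 1390 cells of the rest (21.2%) held none. When the top 20% was chosen by the other 3 genes, the gene left out was still higher in that top in each library. The log2 ratio to the remaining cells was then 1.46, 1.40, 0.76 and 1.23 for Slc38a5 and 1.15, 1.14, 1.09 and 1.06 for Tex15. For Fam81a it was 1.48, 1.72, 1.36 and 1.62, and for Dnajb13 1.83, 1.90, 1.30 and 1.63. The choice of the 4 genes rested on clusters of these same cells, so that they go together was partly set by that choice. Depth and library are also shared by the genes of a cell, and these ratios were not tested. The score has no gap at the threshold. The last member had 4.75172 rule UMIs per 10000 (10 of 21045 UMIs), the first cell outside 4.75144 (8 of 16837), and 562 cells lay within 10% of the limit, 256 of them members.

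In control 20.3% of gated cells were members (exact Clopper-Pearson interval 18.6 to 22.0), and in doxorubicin 16.8% (interval 15.1 to 18.6). The share was 26.5% (24.5 to 28.6) in doxorubicin+AMH and 17.1% (15.6 to 18.7) in AMH. The doxorubicin+AMH share was the highest and the intervals of doxorubicin and AMH overlapped. The shares are made of the values the rule used and come from single libraries, so they are a description. Their intervals cover the counting of cells only, and a difference between groups was not tested. The order depends on single rule genes. Scored without Tex15, the shares were 15.7% in control, 29.6% in doxorubicin+AMH and 19.6% in AMH, and scored without Slc38a5 they were 23.5%, 23.7% and 15.4%, so control and doxorubicin+AMH were then close.

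Depth and quality were similar in both parts of the gate. The libraries held between 7141 and 9478 barcodes and the gate between 1858 and 2356 cells. Median UMIs per cell were 29329.5, 31492.5, 28595 and 25243.5 in members and 27474, 28024.5, 28149.5 and 24955 in the rest, and median mitochondrial shares lay between 5.83% and 6.21% in members and 6.10% and 6.53% in the rest. Between 2.72% and 3.53% of members had doublet scores in the range marked for removal, against 5.76% to 10.2% of the rest. Libraries shared 42 to 58 barcodes with another library (0.588% to 0.627%), 2 or 3 of them gated. Marker lists of theca, stroma, smooth muscle, endothelium, epithelium, leukocytes and red cells summed to lower levels in members. The 7 theca markers came to 653, 497, 469 and 478 CPM in members, most of it from Hsd3b1, and to 2313, 2218, 1278 and 1091 in the rest, and the 6 stroma markers to 81.1, 66.9, 54.8 and 74.3 and 255, 266, 291 and 268. Leukocyte markers came to between 12.4 and 15.4 CPM in members and 27.6 to 49.0 in the rest. Cyp17a1, the defining androgen-producing enzyme of theca cells, had 5.17, 4.64, 2.09 and 0.449 CPM in members and 284, 282, 25.4 and 17.9 in the rest, where it was lower in both libraries with AMH. In the doxorubicin+AMH members 1 cell held 28 of the 35 Cyp17a1 UMIs. Between 18.6% and 24.4% of members and 18.8% and 21.5% of the rest held a UMI of the 12 oocyte markers, which summed to 7.04, 9.28, 6.63 and 68.0 CPM in members, and 1 AMH-library member held 818 of the 909 such UMIs there.

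Of 8 cumulus markers other than the rule genes, 6 were higher in members than in the rest in all 4 libraries and none was lower in all 4. Of the 6633 genes whose 8 sums averaged 20 CPM or more, 37.9% were higher and 41.2% lower in all 4 libraries, a background for the list counts below. The median log2 ratio of this list was 0.51, 0.31, 0.28 and 0.46. Slc38a3, the glutamine transporter by which cumulus cells feed the oocyte, had 45.4, 37.1, 25.1 and 26.1 CPM in members and 19.1, 14.01, 10.03 and 11.04 in the rest. Npr2, the receptor for C-type natriuretic peptide that keeps the oocyte in meiotic arrest, had 47.8, 44.8, 28.5 and 29.3 against 21.5, 19.3, 16.02 and 15.9 CPM. Both were more than 1.5 times as high in members in each library, and both reached the mean of 20 CPM only through members. Gja1, the main gap junction protein between granulosa cells, had 1407, 1381, 1405 and 1436 CPM in members and 892, 865, 1209 and 1097 in the rest. Impdh1 and Impdh2, the enzymes of guanine nucleotide synthesis, were also higher in members in all 4 libraries, with ratios between 0.26 and 0.54, and the Impdh2 values are uncertain because a near-identical copy exists.

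Amh itself had 179.7, 184, 77.6 and 59.3 CPM in members and 101, 167, 62.1 and 37.3 in the rest, a ratio of 0.80, 0.14, 0.30 and 0.61, small in doxorubicin. The BMP type 2 receptor Bmpr2 (0.23, 0.25, -0.15 and -0.12) took both signs. None of the 7 genes of cumulus expansion, the response to ovulation, reached the mean of 20 CPM used as a filter: Has2, which makes the hyaluronan of the expanded matrix, was at 2.48 CPM or less, and the members' sum over the 7 genes was 14.2, 13.1, 10.8 and 10.4 CPM. The members thus had more of most cumulus markers, with the expansion genes below the filter.

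Mural markers were not uniformly low in these cells. Of 8 measured, 3 (Fst, Inhbb and Hsd17b1) were higher in members in all 4 libraries, while 3 (Lhcgr, Cyp11a1 and Kitl) were lower. Fst, which encodes the activin-binding protein follistatin, had 1073, 1036, 1120.1 and 1067 CPM in members, nearly the same in each library, and 398, 389, 769 and 544 in the rest. Hsd17b1, which makes estradiol from estrone, had 501, 549, 719 and 665 against 200.2, 269, 589.7 and 404 CPM. Inhba, the activin and inhibin βA subunit, was higher in members in control and doxorubicin and lower in doxorubicin+AMH and AMH (0.73, 0.63, -0.50 and -0.10). Cyp19a1, the aromatase, was low in both, at 13.3, 12.5, 12.8 and 14.97 CPM in members. The counts of 3 of 8 in each direction stand beside 37.9% of all genes higher and 41.2% lower. The mural list median was 0.59, 0.64, -0.39 and 0.00, above that of the cumulus list in control and doxorubicin. The name cumulus-like rests on the cumulus list alone, and a position beside an oocyte was not measured.

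Of the granulosa genes of the gate, Fshr, the follicle-stimulating hormone receptor, had 228, 229, 152 and 164 CPM in members and 94.6, 88.9, 89.2 and 72.4 in the rest. Foxl2, the transcription factor of granulosa identity, and the AMH receptor Amhr2 were lower in members in all 4 libraries by at most 0.48 on the log2 scale. Gatm, which makes the creatine precursor guanidinoacetate, was far lower, at 14.4, 10.2, 14.9 and 19.6 against 65.5, 64.6, 51.7 and 65.8 CPM. Since these genes belong to the gate, their levels in the gated cells are partly set by it.

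The 6633 genes leave out rule, gate and mitochondrial genes. At least 2-fold differences in all 4 libraries were found for 10 genes on the higher side (0.151%) and 152 on the lower side (2.29%). Some genes reached the mean of 20 CPM only through the part of the gate where they were high. Sema3g and Sardh did so through members and Lhcgr through the rest, and the counts and named genes include such genes. Ratios are log2 of CPM plus 5, which understates low genes. The rule used this contrast, and nothing is read from these shares.

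Sema3g, a secreted semaphorin, led the genes outside the rule. It had 48.7, 48.8, 49.0 and 45.9 CPM in members and 10.7, 13.96, 18.1 and 12.99 in the rest, a log2 ratio of 1.77, 1.51, 1.23 and 1.50. The members were close to each other and the rest varied more. Rbfox1, a splicing regulator, had 411, 353, 248 and 241 CPM against 137, 113, 111 and 77.3, highest in control and lowest in AMH in both parts of the gate. Ano4, of the anoctamin family of membrane proteins, had 706, 677, 525 and 589.8 against 337, 321, 232 and 227 CPM.

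Several other genes of this group have metabolic roles. Dnph1, a nucleotide hydrolase, had 55.9, 53.05, 52.2 and 42.6 CPM in members and 17.4, 20.4, 19.97 and 14.2 in the rest. Sardh, the mitochondrial enzyme that turns sarcosine into glycine, had 30.9, 34.2, 50.4 and 41.8 against 9.77, 12.9, 15.4 and 11.1 CPM, highest in the members of doxorubicin+AMH. Apoa4, a lipoprotein component, had 157, 148, 173 and 145 against 65.4, 68.9, 82.1 and 67.3 CPM, and Cd36, a receptor for fatty acid uptake, 82.2, 78.4, 74.5 and 76.6 against 34.0, 37.3, 35.4 and 33.8 CPM. In each of these genes the lowest member value exceeded the highest value of the rest.

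The remaining named genes were a cilium base protein of hedgehog signalling (Evc2, closest ratio to 0 of the 4 libraries 1.14), a MYC family transcription factor (Mycl, 1.00), a ubiquitin ligase (Trim8, 0.95), a receptor tyrosine phosphatase (Ptprt, 1.00), genes best known from synapses (Unc13c, 1.03, and Lrrtm3, 0.97) and Plekhh1 (1.11). Mycl had 124, 126, 72.2 and 64.8 CPM in members and 59.5, 60.2, 31.5 and 21.4 in the rest, so it was lower in both libraries with AMH in both parts of the gate. Trim8 ran the other way in members, with 80.4, 99.8, 106 and 119 CPM.

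**Figure D1:**
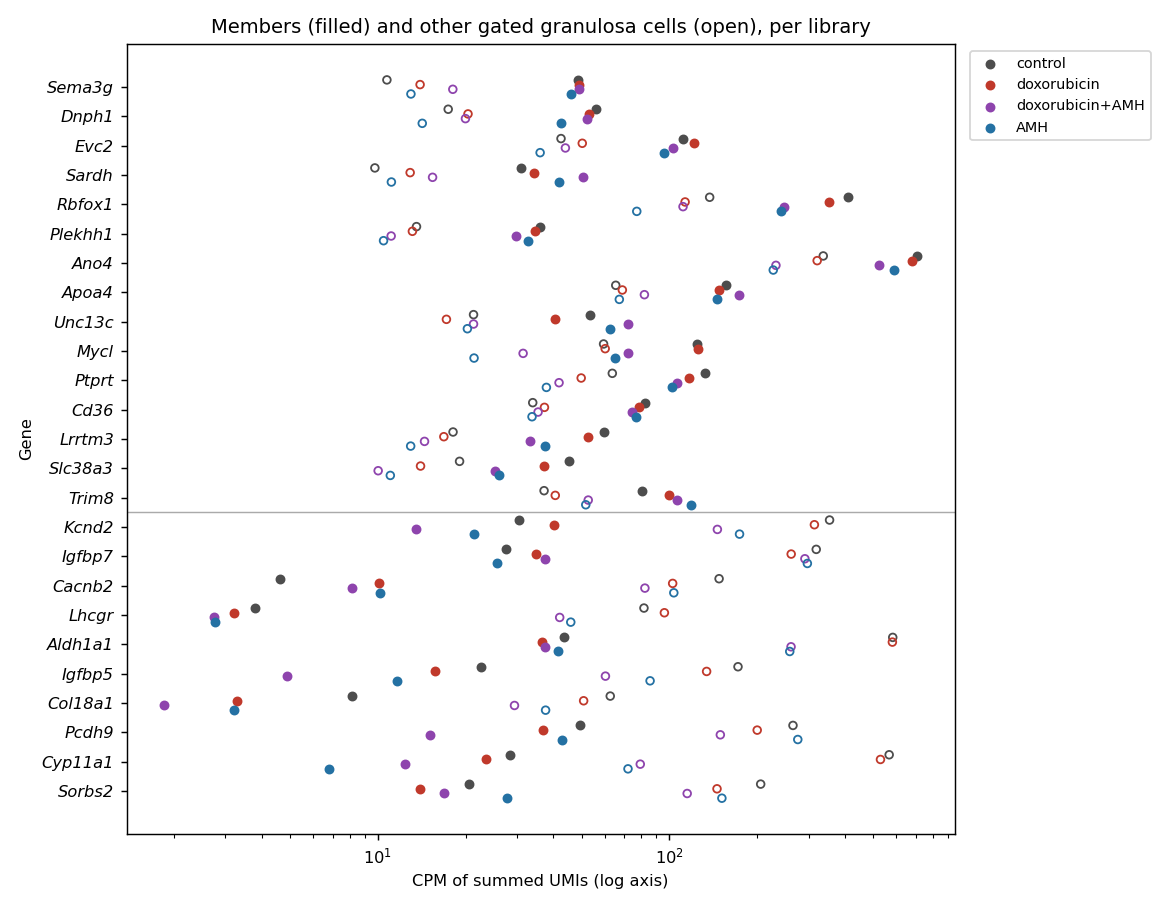
CPM (log axis) of the 15 genes named as higher and the 10 named as lower in members, with filled points for members and open points for the rest, coloured by library. Filled and open points do not overlap for any of the lower genes, and for Sema3g the members lie at 45.9 to 49.0 CPM against 10.7 to 18.1 in the rest.

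The genes lower in members included those of luteinising and steroid-making cells. Lhcgr, the luteinising hormone receptor, had 3.79, 3.20, 2.75 and 2.77 CPM in members and 81.8, 96.1, 42.0 and 45.9 in the rest. Cyp11a1, which starts steroid synthesis from cholesterol, had 28.4, 23.5, 12.4 and 6.81 against 567, 529, 79.4 and 72.1 CPM, and the rest of control and doxorubicin stood far above that of doxorubicin+AMH and AMH. Aldh1a1, a retinoic acid-producing enzyme that is also 1 of the 7 theca markers, had 43.3, 36.4, 37.4 and 41.5 against 583, 581, 261 and 259 CPM. The theca markers above moved with these genes. With cells of 2 or more Cyp17a1 UMIs left out of the rest, a choice made after seeing the data, the ratio closest to 0 went from -2.28 to -0.21 for Cyp11a1, from -2.60 to -0.64 for Lhcgr and from -2.50 to -1.16 for Aldh1a1. With these cells left out the 2-fold lower genes numbered 114 instead of 152 and the 2-fold higher genes 6 instead of 10.

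Lower as well were the insulin-like growth factor binding proteins Igfbp7 and Igfbp5, the basement membrane collagen Col18a1, the potassium channel gene Kcnd2, the calcium channel subunit Cacnb2, the protocadherin Pcdh9 and the adaptor Sorbs2. Without the cells with Cyp17a1 UMIs, the closest ratio was -1.89 for Igfbp7 (-2.74 before) and -1.71 for Cacnb2 (-2.74 before), and at -2.25 or below for the other 5. Kcnd2 had 30.4, 40.2, 13.5 and 21.3 CPM in members and 354, 314, 146 and 174 in the rest. Igfbp7 had 27.6, 35.0, 37.3 and 25.5 against 319, 262, 291 and 297 CPM, and Igfbp5, a gene of small follicles, 22.6, 15.7, 4.90 and 11.6 against 172, 134, 60.3 and 85.8. In the AMH members 1 cell held 39.4% of the Igfbp5 UMIs. Of 10 small-follicle genes 8 were lower in members in all 4 libraries, Gas6 among them (94.7, 88.8, 42.4 and 42.1 against 518, 592, 170.2 and 182 CPM), and 2 were higher, the hedgehog ligand Ihh (0.89, 0.92, 0.75 and 1.32) and the monoamine transporter Slc18a2 (0.35, 0.19, 1.21 and 1.51). Of 6 measured genes linked to atresia, 4 were lower in members in all 4 libraries and 1 was higher.

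Proliferation genes were higher throughout. All 45 measured genes of the G2/M list and all 30 of the S phase list were higher in members in all 4 libraries. The list medians were 0.99, 0.94, 0.62 and 0.97 for G2/M and 0.80, 0.68, 0.47 and 0.79 for S phase, beside medians between -0.03 and 0.00 over all genes. Ube2c, a ubiquitin enzyme of mitotic exit, had 243, 265, 344 and 318 CPM in members and 86.5, 106, 185 and 119 in the rest, and Mki67, a nuclear antigen of dividing cells, 171, 153, 176 and 157 against 73.8, 64.5, 102 and 66.0. After each cell was thinned to 5000 UMIs, 87.8%, 86.5%, 90.3% and 89.1% of members held at least 5 G2/M UMIs, against 66.5%, 71.4%, 75.4% and 76.5% of the rest. For S phase these shares were 72.8%, 65.7%, 75.7% and 72.8% against 42.5%, 44.8%, 51.1% and 49.4%. Unthinned, they lay between 96.5% and 100% in both. The shares count cells with list UMIs and are no count of dividing cells, and the part of free RNA in them was not tested.

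All 6 glycolysis genes that oocyte factors are known to raise were higher in members in all 4 libraries, with list medians of 0.71, 0.84, 0.59 and 0.63. Ldha, the lactate dehydrogenase subunit, had 363, 432, 421 and 414 CPM in members and 162, 193, 267 and 246 in the rest, and Eno1, an enolase, 142, 186, 183 and 194 against 63.1, 79.5, 103 and 92.8. Of 6 measured cholesterol synthesis genes Pmvk, Fdps and Ebp were higher in all 4 libraries and none lower in all 4, and the list median was 0.11, 0.10, 0.14 and 0.46, largest in AMH. Fdps, the farnesyl diphosphate synthase, had 119, 118, 148 and 154 against 86.2, 94.0, 107 and 85.0 CPM. The 12 measured amino acid transporters other than Slc38a5 were split, 6 higher and 6 lower in all 4 libraries. Slc38a3 had the largest ratio among them and Slc7a8, a carrier of large neutral amino acids, the lowest (-1.28, -1.31, -0.78 and -0.77).

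Further groups were lower in members, beside 41.2% of all genes lower in all 4 libraries and 37.9% higher. Of 19 immediate-early and heat shock genes that rise with tissue dissociation, 18 were lower in all 4 libraries, with list medians of -0.88, -0.73, -0.58 and -0.76, and Hsp90aa1 was higher. Of 12 receptors and SMADs of the TGF-β family 9 were lower in all 4 libraries and Bmpr1b, the BMP type 1B receptor, was higher (0.28, 0.33, 0.01 and 0.04), with medians of -0.28, -0.17, -0.34 and -0.32. Of 12 p53 targets 9 were lower and 1, the apoptosis gene Bax (0.49, 0.21, 0.27 and 0.33), was higher. DNA repair genes ran the other way, with 11 of 16 higher and Trp53bp1 lower, Rad51b (1.05, 1.10, 0.83 and 1.006) and Brca1 (1.00, 0.89, 0.62 and 1.12) at the top. Of the meiosis and axoneme lists 1 gene each reached 20 CPM, and both were higher in members in all 4 libraries: Tex14 (0.70, 0.54, 0.66 and 0.81), a protein of germ cell bridges, and Spef2 (1.03, 1.15, 0.48 and 0.51), of the sperm flagellum.

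**Figure D2:**
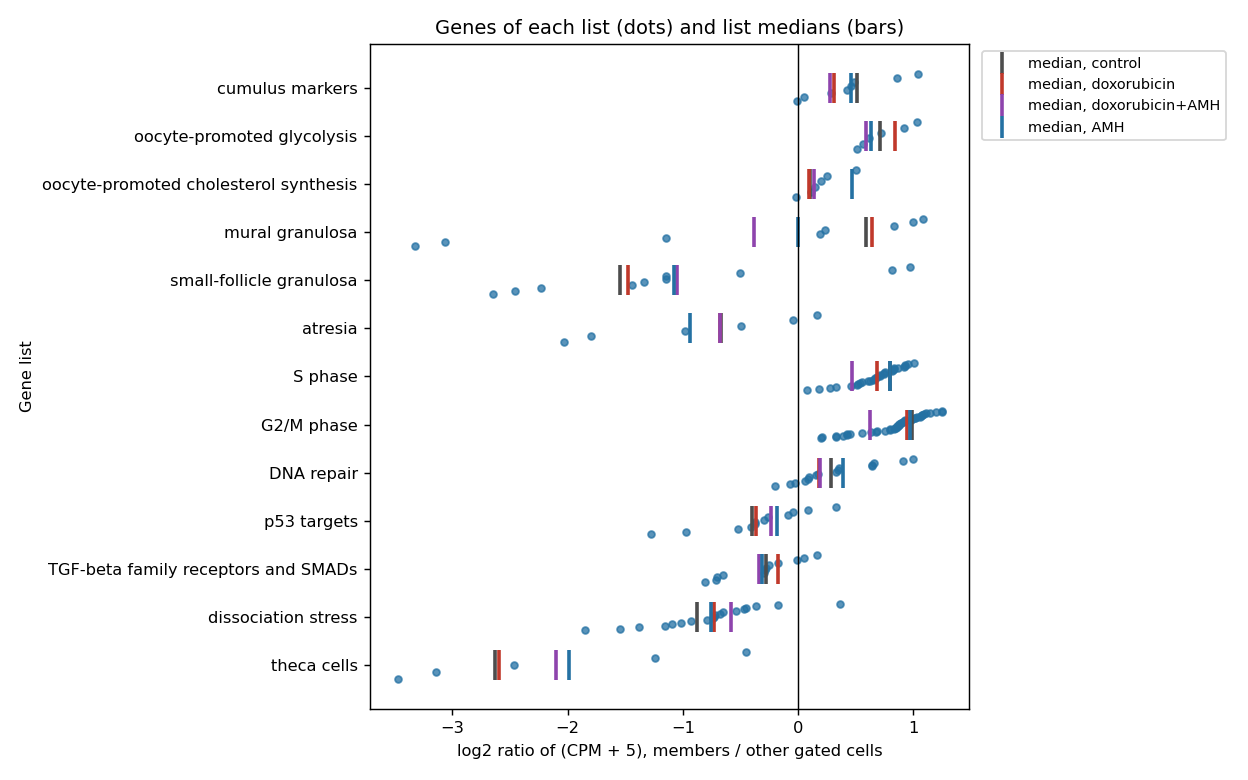
Log2 ratio of members over the rest for the measured genes of 13 lists, where a dot is a gene's mean over the 4 libraries and a vertical bar the list median in 1 library, by colour. In every library the medians of the cell cycle and glycolysis lists lie above 0 and those of the stress and theca lists below 0. The genes of the mural and small-follicle lists spread to both sides.

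For several genes the members were the end of a gradient. All gated cells were put into 5 equal groups by the rule share, and values are means of the 4 libraries from the lowest group to the highest. Slc38a3 went through 3.07, 10.9, 16.1, 24.3 and 33.4 CPM and Fst through 116, 389, 653, 896 and 1074, in rising order in each library. Top2a, the topoisomerase that doxorubicin targets, went through 59.8, 117, 209, 307 and 377 CPM, likewise rising in each library. Amh (29.4, 77.4, 117, 144 and 125) and Inhba (181, 557, 846, 903 and 669) did not follow the score to its end and had their highest mean in the fourth group, although Amh was in rising order through all 5 groups in the AMH library.

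The genes low in members were not spread evenly. Lhcgr went through 221, 29.3, 12.2, 7.85 and 3.13 CPM, Cyp11a1 through 997, 103, 43.3, 43.7 and 17.8 and Aldh1a1 through 1276, 204, 118, 87.9 and 39.7, with most of the difference between the lowest group and the next. The order was not strict in control for these 3 genes. Kcnd2 (445, 324, 154, 60.7 and 26.4) and Igfbp5 (252, 107, 60.3, 33.0 and 13.7) were lower at every step in each library. Hsd3b1, a further steroid enzyme, went through 1788, 595, 715, 687 and 397 CPM, and Hsd17b1 ran the other way (99.3, 285, 450.1, 592 and 608).

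**Figure D3:**
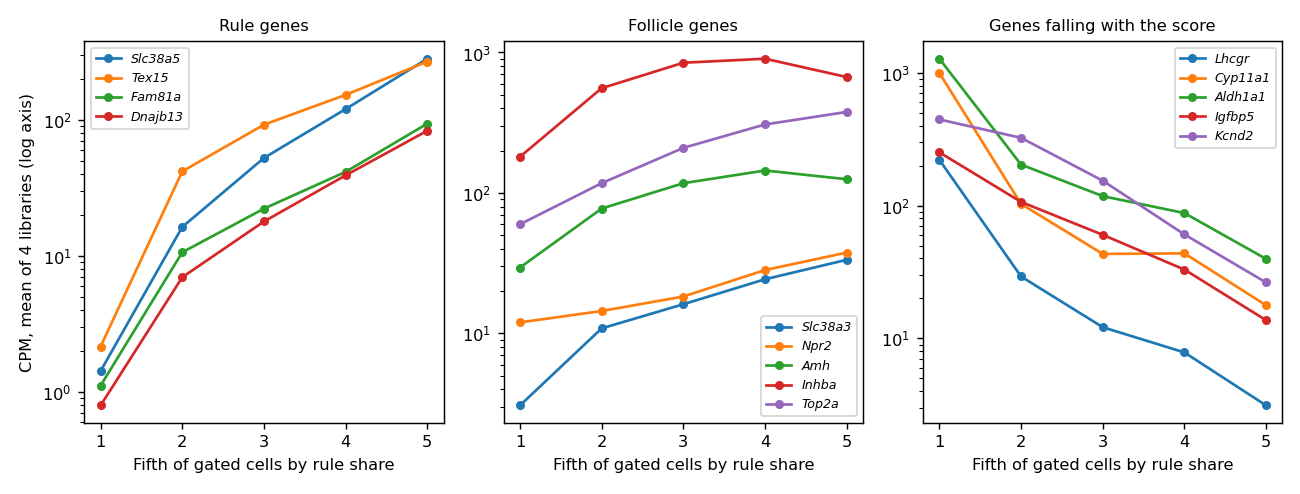
Mean CPM over the 4 libraries (log axis) of 14 genes in 5 equal groups of gated cells ordered by the share of rule gene UMIs, from the lowest share to the highest. The rule genes, Slc38a3, Npr2 and Top2a are highest in the last group, Amh and Inhba in the fourth, and the right panel's genes in the first.

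The members were set beside 3 other granulosa sets of the same size, the top 20% by Inhba, by Gatm and Kctd14, and by Shroom3 and Kcnq5. The Inhba-high set held 336 of the members (20.5% of each), the Gatm and Kctd14-high set 221 (13.5%) and the Shroom3 and Kcnq5-high set 271 (16.6%). All gated cells gave 20.002%. By library, 18.3%, 21.8%, 21.1% and 21.3% of members were Inhba-high, against 12.9%, 15.7%, 28.1% and 23.3% of gated cells, so the share was above that of the gate in the libraries without AMH and below it in those with AMH. The 15 genes named as higher were also higher in members, in all 4 libraries, than in the cells of each of these sets that were not members. Of the 10 lower genes, 7 were lower against the Inhba-high cells, 7 against the Gatm and Kctd14-high cells and 10 against the Shroom3 and Kcnq5-high cells. The set cells belong to the rest against which these genes were named, so the counts are partly fixed by the naming and nothing is read from them. Sema3g, for example, had 24.9, 25.5, 25.3 and 21.6 CPM in the Inhba-high cells, between the members and the rest, while Kcnd2 had 24.8, 24.2, 10.4 and 17.98 CPM there and was not lower in members.

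Amh varied among the members with their overlap with these sets. Members that were also Inhba-high (68 to 104 cells per library) had 64.2, 47.5, 40.9 and 36.3 CPM of Amh, against 201, 217, 85.5 and 64.4 in the other members. Their Slc38a3 was at 22.7, 26.3, 12.5 and 11.1 CPM against 49.5, 39.7, 27.9 and 29.5, and their Nppc, the natriuretic peptide that mural cells send to Npr2, at 181, 244, 443 and 384.5. Members that were also Gatm and Kctd14-high (48 to 71 cells) had 359, 467, 181 and 154 CPM of Amh against 142.5, 122, 65.2 and 47.4 in the others. Members that were also Shroom3 and Kcnq5-high (42 to 95 cells) had 103, 87.3, 33.3 and 14.5 CPM of Amh against 199.8, 199.7, 87.6 and 64.7. Amh was thus lower in the Inhba-high and the Shroom3 and Kcnq5-high members and higher in the Gatm and Kctd14-high members than in the others, in each library.

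Doxorubicin was compared within members in a pair without AMH (doxorubicin / control) and a pair with it (doxorubicin+AMH / AMH), which share no library. Each shares libraries with the AMH pairs further on. A gene was measured when its mean over the 4 member sums was at least 20 CPM (6371 genes). Some genes reached this limit only through the libraries where they were high. Of those named for a treatment, these were 1700034P13Rik, Bmp2 and Ogn for doxorubicin and Maf, Cacna1a, Ank1 and Susd3 for AMH. The p53 targets Cdkn1a and Ccng1 did so too, as did Hbb-bs through control and Fabp4 through the AMH library. The counts of genes past a fold include such genes. At least 2-fold higher were 1 gene (0.0157%) in the first pair and 0 (0%) in the second, and lower were 2 (0.0314%, Hist1h2ap and Hbb-bs) and 6 (0.0942%). None passed 2-fold in the same direction in both pairs, though 1 higher and 2 lower genes did when cells were thinned before scoring. Of all genes 22.5% were above 0 in both pairs and 30.7% below.

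The gene past 2-fold was Cdkn1a, the cell cycle inhibitor p21 and a standard p53 target, which reached the mean of 20 CPM only through the doxorubicin library where it was high, so that its count of 1 is a description. It had 11.04, 41.9, 17.3 and 18.4 CPM in members, a ratio of 1.55 (1.35 to 1.74) without AMH and -0.07 (-0.27 to 0.12) with AMH. The doxorubicin library stood above the other 3, and doxorubicin+AMH / doxorubicin was -1.08 (-1.25 to -0.90). The rest had 18.98, 78.1, 30.5 and 18.4 CPM, with ratios of 1.79 and 0.60. Ccng1, another p53 target that reached the mean only through the doxorubicin library, had 16.8, 32.8, 20.8 and 18.9 CPM in members and ratios of 0.79 (0.60 to 0.98) and 0.11 (-0.08 to 0.30). Eda2r, a death receptor under p53 and below the filter, had 9.31, 22.3, 13.7 and 8.38 CPM, a ratio of 0.93 (0.71 to 1.14) and 0.49 (0.26 to 0.70). Bax had 130.4, 153, 150.4 and 133 CPM and ratios of 0.22 (0.13 to 0.31) and 0.17 (0.08 to 0.25), higher with doxorubicin in both pairs.

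Of the 28 listed p53 targets 11 reached the mean of 20 CPM, and 9 did so without counting the doxorubicin library, a choice added after seeing the data that leaves out Cdkn1a and Ccng1. Of these 9, 8 were above 0 for doxorubicin / control in members, 4 with intervals above 0, beside 44.3% of all genes above 0 and 11.5% with intervals above 0. For doxorubicin+AMH / AMH 6 were above 0, 3 with intervals above and 2 below (Trp53inp1 and Gadd45a). Of all genes 47.5% were above 0 in that pair, 14.8% with intervals above and 17.9% below. The medians of the 9 genes were 0.07 and 0.12 in members and 0.13 and 0.05 in the rest, with all genes at -0.01 in members in both pairs. Over all 28 genes, most of them low, 23 were above 0 in the pair without AMH and 16 in the pair with it, with medians of 0.23 and 0.04. With 1 library per group the difference between the pairs could not be tested. DNA repair genes had medians of -0.11 and -0.04 in members over 18 genes, and the cell cycle lists lay between -0.06 and 0.05. Glycolysis genes were at 0.22 and 0.02, all 6 with intervals above 0 in the pair without AMH, where 11.5% of all genes had one.

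Among genes on the higher side in both pairs, ranked by the ratio closer to 0, the highest was 1700034P13Rik, an antisense transcript, with 20.6, 34.7, 27.5 and 17.2 CPM in members and ratios of 0.63 (0.45 to 0.82) and 0.55 (0.37 to 0.74), followed by Snhg15, a small nucleolar RNA host gene (0.32 and 0.44), Gm13889 (0.33 and 0.31), Cdk2ap1, a regulator of the S phase kinase CDK2 (0.42 and 0.30), Igfbp7 (0.30 and 0.47) and Igsf8 (0.27 and 0.44). In Igfbp7 1 cell held 25.1% of the UMIs of the doxorubicin members. Cdk2ap1 and 1700034P13Rik have near-identical copies and are uncertain.

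On the low side, the histone gene Hist1h2ap had 126, 49.4, 125 and 237 CPM in members, -1.26 and -0.90, with a near-identical copy. Gm10076 (-0.40 and -0.78) has a copy too, and in the rest it was at -0.36 and -0.75. The growth factor gene Bmp2 had 31.6, 19.2, 20.5 and 31.4 CPM, with ratios of -0.60 and -0.51. Acta2, the smooth muscle actin (-0.60 and -1.46), and Ogn, a proteoglycan (-0.54 and -0.64), were on the low side in both pairs too. Acta2 is 1 of the 6 smooth muscle markers, of which Tagln had 20.8, 17.3, 12.1 and 41.7 CPM in members and Rgs5 under 1 CPM in each library. The part of smooth muscle cells in these values was not tested.

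AMH was compared within members as AMH / control and doxorubicin+AMH / doxorubicin, again without a shared library. At least 2-fold higher were 9 genes (0.141%) and 5 (0.0785%), lower 15 (0.235%) and 21 (0.33%). Kcnb2, Igfbp4, Hist1h2ap, Robo2 and Maf were the 5. In both pairs at once 4 genes were 2-fold higher (0.0628%) and 9 lower (0.141%). These counts depend on the processing: they were 2 and 2 at a pseudocount of 20 CPM, and the lower genes numbered 16 without Slc38a5 in the score. Above 0 in both were 21.8% of genes and below 0 42.7%. The rest gave 7 (0.11%) and 14 (0.22%).

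Amh was among the lower genes in members, at 179.7, 184, 77.6 and 59.3 CPM, with ratios of -1.52 (-1.63 to -1.42) and -1.19 (-1.29 to -1.10). Both libraries with AMH were low and both without it high. The rest showed -1.32 and -1.36. Cacna1a, a calcium channel gene, had 40.4, 36.9, 8.18 and 7.56 CPM and was lowest by the ratio closer to 0 of both pairs, at -1.85 (-2.05 to -1.65) and -1.67 (-1.86 to -1.47). Ghr, the growth hormone receptor, had 149, 155, 70.1 and 69.6 CPM, with ratios of -1.04 and -1.09, and the extracellular matrix gene Fbn2 111, 97.4, 33.7 and 47.7 CPM, with -1.14 and -1.40. The netrin family gene Ntng1 (-1.50 and -1.29), Nnat (-1.37 and -1.23), the ankyrin gene Ank1 (-1.29 and -1.19) and Shisa6 (-1.07 and -1.11) completed the group. Dsp, the desmosome protein desmoplakin, was the ninth gene lower in both pairs (-1.30 and -1.02) and is named after its values were seen. Susd3 had 41.1, 64.1, 18.5 and 20.6 CPM and was among the 3 lowest for doxorubicin+AMH / doxorubicin, at -1.56.

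Kcnb2, a potassium channel gene, was highest by the ratio closer to 0 of both pairs, at 36.7, 34.2, 119 and 117 CPM in members, with ratios of 1.55 (1.42 to 1.68) and 1.67 (1.53 to 1.80). Igfbp4, which binds insulin-like growth factors, had 19.5, 25.6, 71.4 and 67.6 CPM, with 1.57 (1.40 to 1.73) and 1.32 (1.16 to 1.48). Both genes were 2-fold or more higher in both libraries with AMH. Nppc had 86.4, 116, 225 and 190.3 CPM, with 1.09 and 0.92, while its receptor Npr2 had -0.62 and -0.57. The transcription factor Maf had 1.17 and 1.10, the SLIT receptor Robo2 1.07 and 1.13, the retinoic acid binding protein Crabp2 1.16 and 0.89, and Hist1h2ap 0.89 and 1.25.

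Of the 5 measured BMP/SMAD targets, 4 had intervals above 0 for AMH / control in members and 3 for doxorubicin+AMH / doxorubicin. Over all genes 13.9% and 15.5% had intervals above 0, and 38.2% and 41% had ratios above 0. The list medians were 0.57 and 0.30 in members and 0.75 and 0.78 in the rest, beside -0.04 and -0.03 over all genes in members. The second member value moved between 0.19 and 0.46 with the scoring and the filter. Smad6, an inhibitory SMAD, had 21.5, 24.7, 50.4 and 62.1 CPM, with 1.34 (1.18 to 1.50) and 0.90 (0.73 to 1.06). Id2, a transcription inhibitor induced by BMP signals, had 131, 144, 178 and 224 CPM, with 0.75 and 0.30, and Smad7 97.6, 113, 146 and 147 CPM, with 0.57 and 0.36. Id1 (0.11 and 0.06) and Id3 (-0.02 and 0.03) stayed near 0.

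Among the cumulus markers Amh, Slc38a3 and Npr2 had the lowest AMH ratios in members. Slc38a3 had ratios of -0.70 (-0.86 to -0.53) and -0.48 (-0.65 to -0.31), and the list median of 8 genes was -0.25 and -0.02. Slc38a5 had 0.23 and 0.07, and Tex15 -0.47 and -0.32, values set in part by the rule. The G2/M list had medians of 0.06 and 0.18 in members and 0.06 and 0.54 in the rest.

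**Figure D4:**
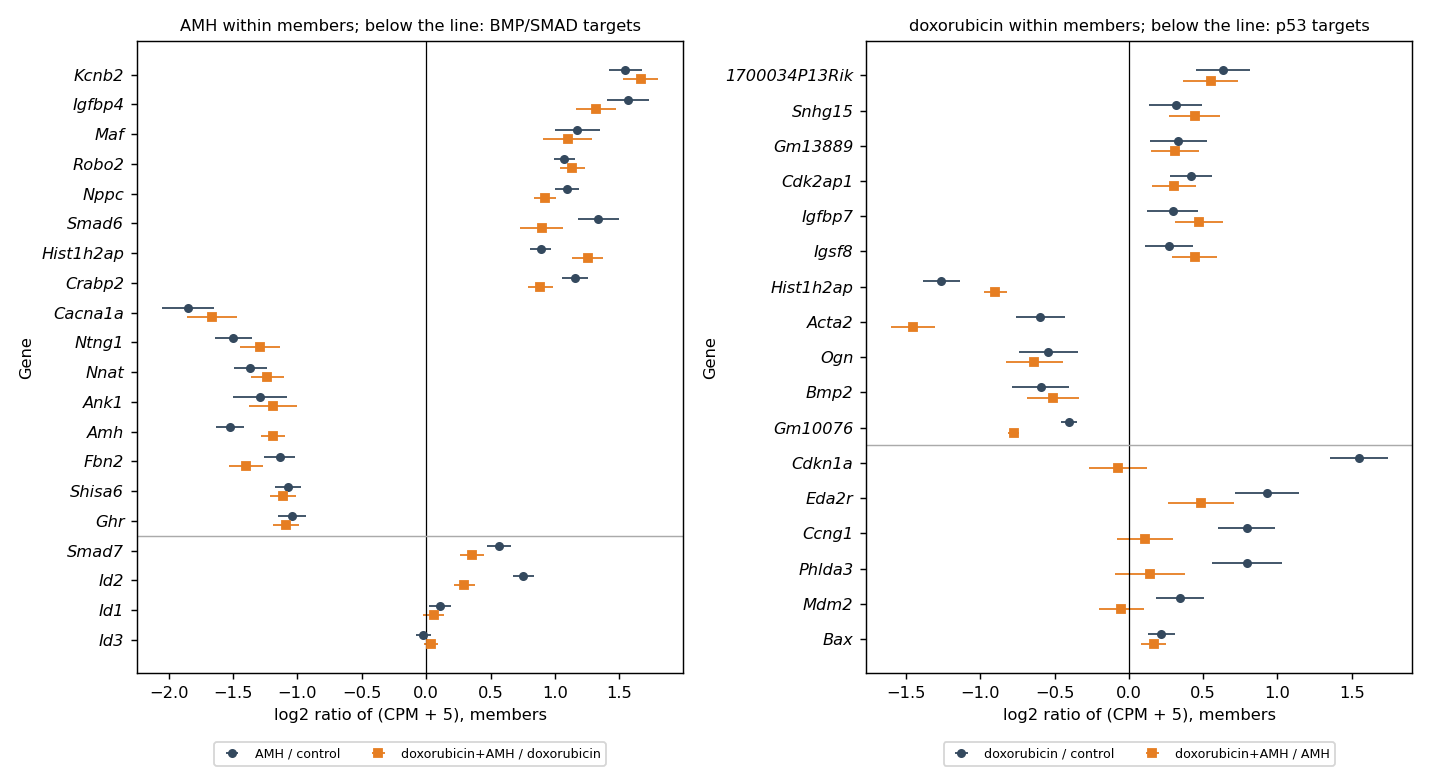
Log2 ratios within members, with 95% counting intervals as bars, for genes named in the AMH pairs (left) and doxorubicin pairs (right), and list genes below the grey line. Circles and squares are the pair without and with the other agent. The genes above the line lie on the same side of 0 in both pairs because the naming rule required it. Among the list genes, to which that rule did not apply, Cdkn1a lies at 1.55 without AMH and -0.07 with it.

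The AMH ratio was not alike in members and the rest for several granulosa genes. Kctd14, a gate gene, had 187, 175, 123 and 128 CPM in members and 266, 278, 73.8 and 68.0 in the rest, so that it was lower in members without AMH and higher with it. Its ratios were -0.53 and -0.49 in members and -1.89 and -1.85 in the rest. Inhba varied less across the members, at 579.7, 686, 699 and 712 CPM, than across the rest, at 348, 441, 991 and 765. Its control members were lowest, with intervals above 0 for doxorubicin / control (0.24) and AMH / control (0.29). Its AMH ratios were 0.29 and 0.03 in members and 1.13 and 1.16 in the rest.

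Aldh1a1 likewise stayed between 36.4 and 43.3 CPM in members and went from above 580 to about 260 CPM in the rest, with AMH ratios of -0.06 and 0.03 against -1.16 and -1.14. Fabp3, a fatty acid binding protein, had 32.7, 35.8, 18.4 and 21.6 CPM in members and 163, 192, 42.8 and 45.3 in the rest. The semaphorin receptor Plxna2 had AMH ratios of -0.09 and -0.46 in members and 0.77 and 1.13 in the rest. In the rest Aldh1a1, itself a theca marker, and Fabp3 were lower with AMH as the summed theca markers above were, and the part of theca cells in them was not tested. The rule also named Fabp4 and the haemoglobin gene Hbb-bs, but 1 cell held 82.9% of the Fabp4 UMIs of AMH members and 1 cell 76.5% of the Hbb-bs UMIs of control members.

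**Figure D5:**
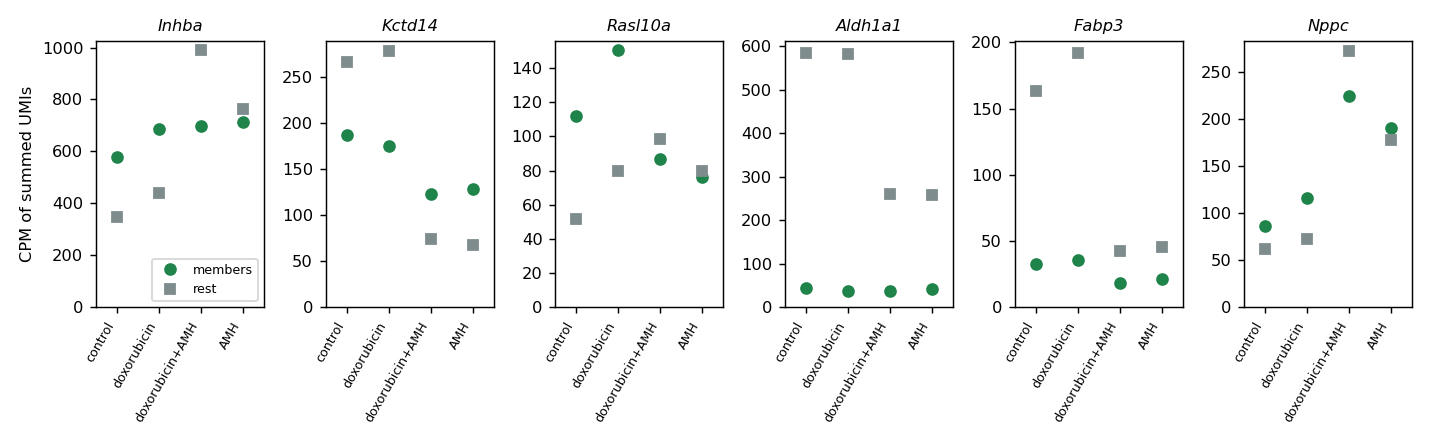
CPM of 6 genes per library, with circles for members and squares for the rest, each axis starting at 0. Inhba and Aldh1a1 vary less between libraries in members than in the rest, where the libraries without and with AMH differ. The symbols of Kctd14 and Rasl10a cross between the libraries without and with AMH.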

How the data were processed

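Mouse ovary cells of 4 libraries, 1 per group, were analysed from the deposited count matrices: raw UMI counts for each gene and barcode that the authors made with Cell Ranger 7.0.0, per the file headers. The submitters' processing notes name mm10, R 4.2.0 and Seurat 4.1.0. The count matrices hold 32285 genes, of which 32158 IDs matched GENCODE vM21; no column was left unmapped (0). Barcodes had at least 500 UMIs before any filter here. Whether counting used strand or introns is not given in the sources used here.

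Counts were summed over members and over the rest of each library with Python 3.11.15, numpy 2.4.6, scipy 1.17.1 and pandas 2.3.3, and expressed as CPM. Ratios were taken as log2 after adding 5 CPM, and counts and medians over genes used those with a mean of 20 CPM over the sums compared, except where given for all listed genes. Their 95% intervals combine exact Poisson limits. Shares have exact Clopper-Pearson intervals. Cells were thinned once at random. Doublets were scored with Scrublet in scanpy 1.11.5 and kept. Leaving out the highest scores at 0.8% per 1000 barcodes was an alternative, since the automatic threshold marked 194 control cells and at most 1 elsewhere. The scripts were tested on simulated data.

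Genes were named by rule. Against the rest the rule took the 15 highest and 10 lowest ratios closest to 0 where all 4 libraries had 1 sign, and within members the 6 highest and 6 lowest (doxorubicin) and 8 highest and 8 lowest (AMH) by the ratio closer to 0 of both pairs. Added were the 3 highest and 3 lowest for doxorubicin+AMH / doxorubicin and 4 genes at each end of the AMH ratio in members minus the rest. Some genes that these rules or the lists take are not reported here. Rule, gate and mitochondrial genes stayed out of the first choice. Of the 59 named genes, 6 have near-identical copies (95% identity over 90% of the last 300 bases, blastn 2.17.0) and 15 overlap another gene on the same strand, so their counts are uncertain. The members, lists and comparisons were chosen with earlier results of these data known. Alternatives changed the member threshold, scoring, gate, doublets, scaling, weighting, pseudocount and filter.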

Additional observations from a re-analysis of the deposited data

Results flagged for a closer look

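Rasl10a, a small GTPase of the RAS family, had 112, 151, 87.0 and 76.3 CPM in members and 51.7, 79.7, 98.6 and 79.9 in the rest. AMH / control was -0.52 (-0.63 to -0.42) in members and 0.58 in the rest, a difference of -1.11 on the log2 scale, and doxorubicin+AMH / doxorubicin was -0.76 (-0.85 to -0.66) and 0.29, a difference of -1.05. It drew attention because both ratios were below 0 in members and above 0 in the rest. The difference was not tested, since each group has 1 library.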

How the results depend on the processing

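Across 18 settings, 1515 of 1901 compared values stayed within set limits, 385 moved and 1 reversed. Of the 1582 that concern single genes or further list medians, 340 moved. The limit was the counting error of the main value for ratios and medians, its interval for shares and a set fold for gene counts. A reversal was counted only where the main value exceeded its counting error, so smaller values could change sign without being counted. The glycolysis median for AMH / control within members changed sign, to -0.022, when Tex15 was left out of the score. Shares of members in control, doxorubicin, doxorubicin+AMH and AMH were 10.7%, 8.83%, 12.9% and 7.98% at the top 10% and 30.1%, 26.2%, 37.8% and 26.8% at the top 30%, where the control S phase share was 67.7%. The top 20% of each library gave 20.02%, 19.98% and 19.99% for doxorubicin, doxorubicin+AMH and AMH, values fixed by that choice. The general level of the shares at the top 10% and 30% is also set by the choice. All these shares still count among the values that moved. Without Slc38a5 in the score the shares were 23.5% (control), 23.7% (doxorubicin+AMH) and 15.4% (AMH), and without Tex15 15.7%, 29.6% and 19.6%.

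The 10 genes 2-fold higher in members became 2 when cells were thinned before scoring or the pseudocount was 20 CPM, 16 at 1 CPM or without the filter, 20 with median-of-ratios scaling, and 6 when cells with 2 or more Cyp17a1 UMIs were left out of the rest, a choice added after seeing the data. The 152 lower genes became 71 at 20 CPM and 261 without the filter. The 4 genes 2-fold higher in both AMH pairs became 2 at the top 10%, with the top 20% of each library and at 20 CPM. The 9 lower genes became 16 without Slc38a5, 5 without Tex15, 2 at 20 CPM and 14 without the filter. In the doxorubicin pairs thinning gave 1 higher and 2 lower genes in place of none. The BMP/SMAD median was 0.70 for AMH / control without Slc38a5, and for doxorubicin+AMH / doxorubicin 0.21 with the top 20% of each library, 0.46 with thinning, 0.39 without Slc38a5 and 0.19 without the filter. The lowest G2/M median of members over the rest was 0.51 with the top 20% of each library, 0.78 without Tex15, 0.50 without Dnajb13, 0.75 with median-of-ratios scaling and 0.49 at 20 CPM. The cause of these changes was not tested.

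No paired analysis was possible because each group has 1 library. Leaving out the AMH-library member that held 818 of the 909 oocyte-list UMIs there, also chosen after seeing the data, moved none of the values recomputed for it. These were ratios, medians and gene counts between libraries. Member shares, cell cycle shares and values of members against the rest were not recomputed. Depth limits genes below 20 CPM, and animals cannot be told apart within a pool.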
